A study of Caenorhabditis elegans with 2 samples.

Results

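HIM-1 ChIP-seq sites at promoters of single genes on the C. elegans X chromosome were entries of a pooled peak list that overlapped an entry in the lists of both replicates. The summit of each lay within 500 bp of the 5′ ends of protein-coding transcripts of exactly 1 gene. There were 450 such sites, at 355 genes, among 2507 X entries and 12228 entries in all. Of these, 126 sites at 116 genes were also in the optimal list, the authors' list of reproducible peaks, and 324 were not. A further 23 X entries found in both replicates had 5′ ends of more than 1 gene nearby and are not described here.

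The worms were of strain YL576, a transgenic line that stably expresses HIM-1 with a C-terminal GFP-FLAG tag. They were hermaphrodites at the L4/young adult stage, collected as whole animals 51 hours after synchronization as L1 larvae starved after bleaching. Chromatin was sonicated and precipitated with an antibody against GFP, although the antibody field of the labels names him-1. There was 1 group with 2 biological replicates, both called against the same control, so the design holds no comparison between conditions and no p-value is given. No precipitation from untagged worms or from worms with GFP alone was analysed here, so binding cannot be told apart from background that both libraries share. The signals come from whole animals, and the lists do not say in which cells HIM-1 was present at a site.

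HIM-1 is the SMC1 subunit of cohesin, the ring-shaped protein complex that holds sister chromatids together and that also shapes chromatin loops in cells between divisions. Cohesin is loaded onto chromatin by its loader complex and can stay or move along the fibre after loading. In C. elegans hermaphrodites the X chromosomes also carry the dosage compensation complex, which holds a condensin built of other SMC proteins and enters X at recruitment sites that contain the MEX motif. Most worm messenger RNAs receive a spliced leader in trans, so an annotated 5′ end can lie downstream of the point where transcription starts.

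The sequences under the strongest sites are shown because their base composition, and in some cases a motif match, are taken up below. They are the 101 bases centred on the summit for the 8 optimal sites with the highest pooled signal, read 5′ to 3′ on the strand of the gene from the RefSeq copy of WBcel235, the assembly also called ce11. Capitals mark matches to the motifs searched, and a sequence with no capitals holds none.
R04E5.9 (X:8811094-8811194, minus strand): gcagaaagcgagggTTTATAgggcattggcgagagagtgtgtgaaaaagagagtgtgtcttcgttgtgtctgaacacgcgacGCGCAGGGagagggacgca
T13C5.6 (X:6207798-6207898, minus strand): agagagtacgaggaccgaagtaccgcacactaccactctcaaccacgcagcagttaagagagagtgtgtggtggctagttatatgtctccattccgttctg
eef-1A.2 (X:7823208-7823308, plus strand): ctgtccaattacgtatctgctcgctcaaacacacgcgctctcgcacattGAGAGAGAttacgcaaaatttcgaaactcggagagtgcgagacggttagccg
C14A11.9 (X:2809783-2809883, minus strand): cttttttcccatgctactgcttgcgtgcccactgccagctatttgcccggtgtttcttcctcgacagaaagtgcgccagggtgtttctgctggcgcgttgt
puf-9 (X:5841234-5841334, plus strand): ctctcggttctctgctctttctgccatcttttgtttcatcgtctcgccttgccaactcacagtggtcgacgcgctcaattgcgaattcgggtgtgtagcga
serp-1.1 (X:15841205-15841305, plus strand): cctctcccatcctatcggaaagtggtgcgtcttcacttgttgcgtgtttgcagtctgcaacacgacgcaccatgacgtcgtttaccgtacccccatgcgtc
myrf-2 (X:10188606-10188706, minus strand): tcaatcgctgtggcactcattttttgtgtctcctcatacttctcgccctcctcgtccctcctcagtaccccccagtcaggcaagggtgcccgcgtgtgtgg
ZK1193.2 (X:410185-410285, minus strand): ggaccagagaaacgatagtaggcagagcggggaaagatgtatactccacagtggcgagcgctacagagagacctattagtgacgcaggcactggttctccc
The next highest optimal sites with a match to GAGAGAGA are shown over 201 bases, since their match lies wholly or partly more than 50 bp from the summit.
F46H5.2 (X:7265118-7265318, plus strand): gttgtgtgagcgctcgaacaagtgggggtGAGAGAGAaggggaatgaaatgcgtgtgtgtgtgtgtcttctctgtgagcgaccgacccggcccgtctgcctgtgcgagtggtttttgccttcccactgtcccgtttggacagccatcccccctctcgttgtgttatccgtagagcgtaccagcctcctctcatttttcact
rgs-6 (X:5729128-5729328, minus strand): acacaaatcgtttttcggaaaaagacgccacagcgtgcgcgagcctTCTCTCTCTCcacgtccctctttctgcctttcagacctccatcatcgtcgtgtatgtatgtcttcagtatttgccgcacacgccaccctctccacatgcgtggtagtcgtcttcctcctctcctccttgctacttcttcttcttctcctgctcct
nhr-1 (X:17513642-17513842, plus strand): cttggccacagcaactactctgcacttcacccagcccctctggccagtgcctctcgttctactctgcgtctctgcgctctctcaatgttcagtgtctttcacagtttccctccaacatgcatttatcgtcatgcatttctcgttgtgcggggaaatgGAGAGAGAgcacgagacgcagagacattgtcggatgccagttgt
In R04E5.9 the capitals mark the reverse complement of TATAAA and then GCGCAGGG, the core of the MEX motif. In eef-1A.2, F46H5.2 and nhr-1 they mark GAGAGAGA, and in rgs-6 a longer run of its reverse complement.

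Signal at the 450 sites is the authors' own value for each peak, on a scale not given in the sources used here, and the lists give no read counts, so depth is unknown. The pooled signal ran from 42.5 to 449 with a median of 73.3. The median of the optimal sites was 143, and that of the others was 63.4. The optimal list holds the entries with the highest pooled signal, so this difference follows from how the list was made. At its edge, the lowest optimal sites were at fox-1 (103.7), F15G9.5 (103.0) and hpk-1 (102.3), and the highest sites left out were at trpp-9 (101.5), ZK1073.1 (99.6) and apt-9 (99.0).

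Of the 450 sites, 28.0% were in the optimal list (exact 95% interval 23.9 to 32.4). The background was 14.7% of all pooled entries and 21.5% of the pooled entries found in both replicates. Among X sites found in both replicates whose summit had no 5′ end within 500 bp, 21.2% were optimal (19.0 to 23.6, n = 1271). Among autosomal promoter sites chosen by the same rule, 24.0% were optimal (22.1 to 26.0, n = 1924). The interval of the X promoter sites overlapped that of the autosomal ones. It cleared that of the X sites away from promoters by a narrow margin. With a replicate left out, the X promoter share was 23.8% of 526 sites (without replicate 2) or 27.9% of 463 (without replicate 1). Those are other sets of sites, and no such shares are given for the other classes. Intervals here cover counting error only, and neighbouring sites are not independent, so no difference between these classes was tested. The highest of the 450 ranked 18 among X entries. Members were 22 of the 100 highest X entries and 17.9% of all X entries, shares that lie close together.

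**Figure D1:**
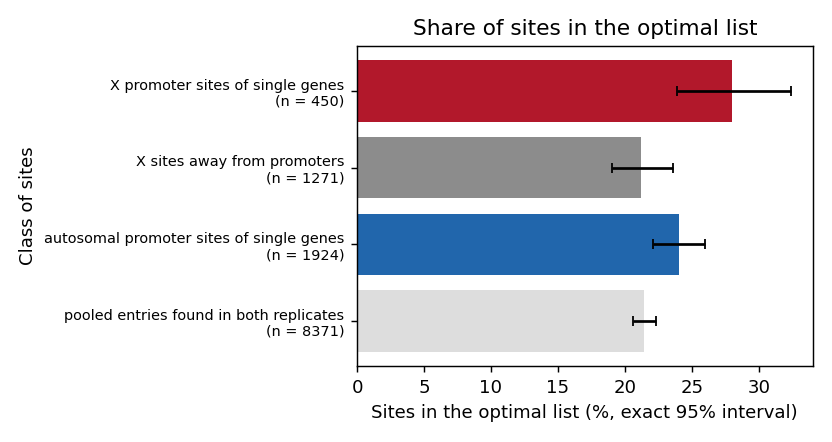
Share of sites in the optimal list, in percent, for 4 classes of sites on the vertical axis, with exact 95% binomial intervals as bars. X promoter sites of single genes stand at 28.0%, autosomal ones at 24.0% and X sites away from promoters at 21.2%; the last class, all pooled entries found in both replicates, contains the others.

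Both replicates gave a value at every site, by construction. Across all 450 sites the replicate signals had a Spearman correlation of 0.640, across the 126 optimal sites 0.754 and across the other 324 sites 0.262. The optimal list is a cut on the pooled signal, which is close to the sum of the replicates, and such a cut by itself lowers the correlation below it, so the last value is no measure of how well weak sites repeat. All 3 describe sites that share 2 libraries and 1 control. Replicate 1 was the higher at 374 of 450 sites, with a median ratio of 1.36. The lists differ in scale throughout: over all pooled entries found in both replicates the median signal was 39.7 in replicate 1 and 29.3 in replicate 2. Among optimal sites the ratio of replicate 1 to replicate 2 stayed between 0.803 and 2.74, whereas among the others it ran from 0.173 to 7.72. The most extreme ratios came from weak entries beside strong ones, where the replicate entry nearest to the summit was that of the strong neighbour. At the second T13C5.6 site, with pooled signal 50.7, the replicate 2 value of 189 was the same entry that served the main T13C5.6 site. The nearest replicate 2 entry was also that of another member at 80 sites, and the nearest replicate 1 entry at 36 sites.

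Among optimal sites, the ones with the lowest ratio of replicate 1 to replicate 2 were the second nhr-40 site (log2 ratio −0.32), kin-29 (−0.27), a kinase gene, and F46H5.2 (−0.21), which encodes a protein with a kinase domain. At the other end were act-4 (1.40), an actin gene, hst-2 (1.42), a heparan sulfate sulfotransferase gene, and ife-4 (1.46), a gene of the cap-binding eIF4E family. With all members ranked by signal in each replicate, whatever their pooled rank, 14 were in the top 25 of both replicates and 72 in the top 100 of both.

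**Figure D2:**
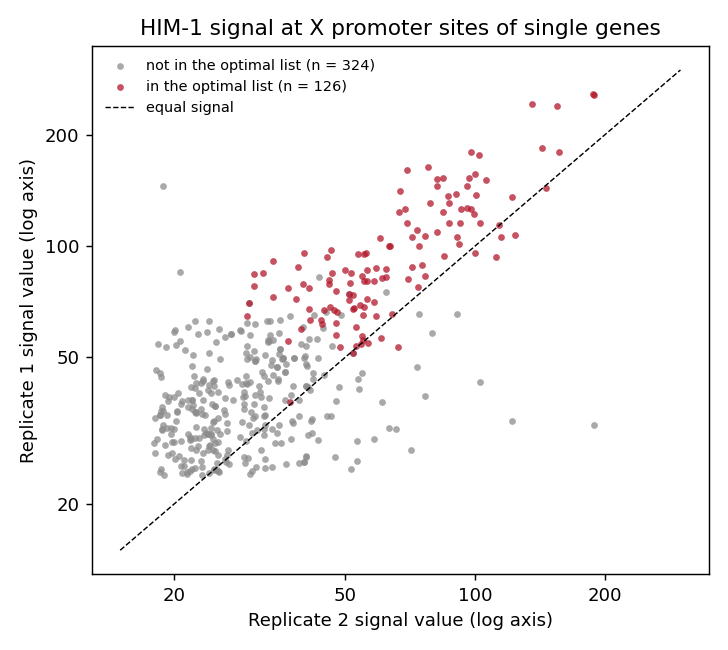
Signal value of each of the 450 sites in replicate 2 (horizontal, log axis) and replicate 1 (vertical, log axis), with optimal sites in red, other sites in grey and equal signal as a dashed line. Most points lie above the line, since replicate 1 was higher at 374 sites, and the ratio spans 0.803 to 2.74 at optimal sites against 0.173 to 7.72 at the others.

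The strongest promoter site was at R04E5.9, a gene of unknown function, where the pooled signal was 449 and the replicates gave 259 and 188. Its entry covers X:8810909-8811378 and its summit lies 2 bp upstream of the annotated 5′ end. A site of nearly the same height was at T13C5.6, which encodes a protein with a phosphatidic acid phosphatase domain, with pooled signal 447 and replicate signals of 256 and 189. Replicate 1 put R04E5.9 higher and replicate 2 put T13C5.6 higher, so their order is not resolved. The third was at eef-1A.2, a gene for translation elongation factor 1-alpha, with pooled signal 395, replicate signals of 239 and 155, and a summit 396 bp upstream of the 5′ end.

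C14A11.9, whose RefSeq product is named for a DASH complex subunit, followed with 368 in the pooled list and 243 and 135 in the replicates. puf-9, a gene of the Pumilio family of RNA-binding proteins, had 337, with 180 and 157. serp-1.1, a gene for a stress-associated protein of the endoplasmic reticulum, had 325, with 184 and 143. In replicate 1 C14A11.9 was above eef-1A.2, and in replicate 2 it was below both eef-1A.2 and puf-9, so this part of the order also differed between replicates.

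The site at myrf-2, which encodes a homolog of the myelin regulatory factor, reached a pooled signal of 300.2 with 144 and 146 in the replicates, and lay in an intron 186 bp upstream of an internal 5′ end. ZK1193.2, with 277 (176 and 102), has a tRNA gene 156 bp from its summit. The epsin gene epn-1, whose product acts in endocytosis, had 268 (180 and 98.1). R04E5.8, which encodes a protein with a JmjC domain, had 260 (151 and 106), and it lies near R04E5.9.

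The alpha-mannosidase gene ZC506.1 had a pooled signal of 258, with replicate signals of 157 and 100.1. At uggt-1, the gene for a glucosyltransferase that checks the folding of glycoproteins in the endoplasmic reticulum, it was 257, with 136 and 122. unc-115, an actin-binding LIM protein gene needed for axon guidance, had 244, with 163 and 77.8, one of the wider gaps between replicates in this group. syd-2, the liprin-alpha gene that acts in building presynaptic sites, had 239, with 138 and 100.5.

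The remaining sites of the top 20 ran from 225 to 238 in the pooled list, and their order differed between the replicates. They were at rpl-11.2 (238), a ribosomal protein gene, egl-17 (229), the gene of a fibroblast growth factor that guides migrating sex myoblasts, and mai-1 (229), a mitochondrial ATPase inhibitor gene. pkhm-2 (227), F46H5.2 (227) and rgs-6 (225), a regulator of G protein signalling, completed them. F46H5.2 and myrf-2 were the members of the top 20 with a higher value in replicate 2 than in replicate 1, 124 against 107 at F46H5.2.

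**Figure D3:**
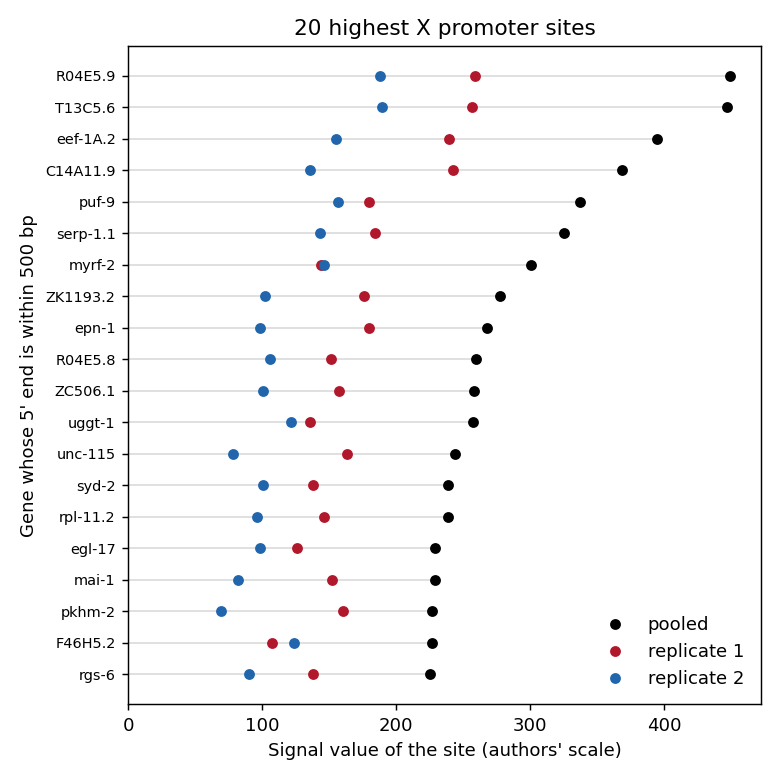
Signal value (horizontal, authors' scale) at the 20 highest X promoter sites in the optimal list, named by gene on the vertical axis, with the pooled value in black, replicate 1 in red and replicate 2 in blue. The pooled value falls from 449 at R04E5.9 to 225 at rgs-6, and replicate 1 lies to the right of replicate 2 at every site except myrf-2 and F46H5.2.

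Summits lay mostly upstream of the nearest annotated 5′ end, which was not always the outer end of the gene. Of the 450 sites, 351 (78%, 73.9 to 81.7) had their summit upstream of the nearest 5′ end, with a median position of −170.5 bp. Among optimal sites 110 of 126 (87.3%, 80.2 to 92.6) were upstream, with a median of −195.5 bp. Among the others 241 of 324 (74.4%, 69.3 to 79.0) were upstream, with a median of −153 bp. The intervals of the optimal and the other sites did not overlap, and the difference was not tested.

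The same measure was lower for autosomal promoter sites as a whole, 68.8% upstream (66.7 to 70.9). Restricted to the optimal list it was 87.4% (84.1 to 90.3, n = 462) on the autosomes, with a median of −184 bp, so among optimal sites the X and autosomal intervals overlapped. By annotation, 268 summits (59.6%) were intergenic, 106 (23.6%) were in introns, 42 (9.33%) in UTRs and 34 (7.56%) in coding sequence. Only 2 of the 126 optimal summits were in coding sequence, at hst-2 and F53B1.9, against 32 of the 324 others.

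**Figure D4:**
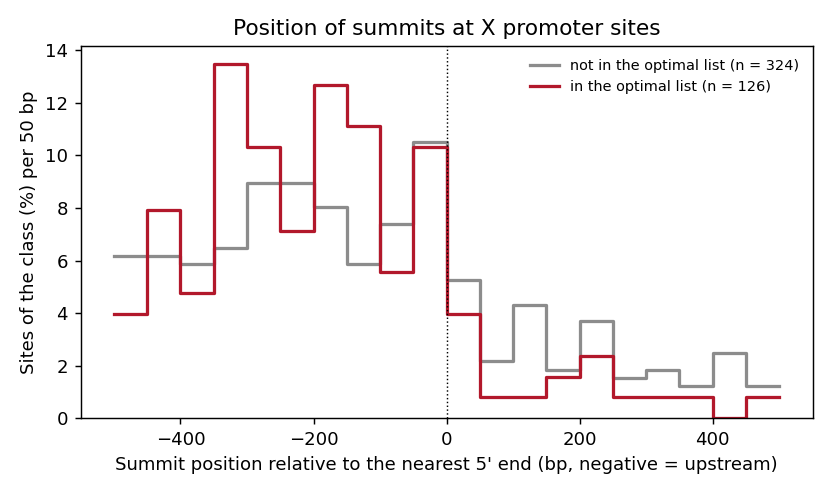
Summit position relative to the nearest annotated 5′ end (horizontal, bp, negative is upstream) against the share of each class per 50 bp (vertical, percent), for the 126 optimal sites in red and the 324 other sites in grey. Both classes lie mostly upstream of the 5′ end, with medians of −195.5 and −153 bp.

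At 88 sites the 5′ end within reach was an internal one, and the outer end of the gene lay farther away; 25 of these were optimal. lin-14, the heterochronic gene that sets the timing of larval cell fates, had optimal sites at both kinds of end. The intronic one had a pooled signal of 148 (86.8 and 62 in the replicates) and the one in front of the gene 137 (80.4 and 56.1). nhr-1, a nuclear hormone receptor gene, likewise had optimal sites at separate 5′ ends, with 224 (153 and 84.4) in front of the gene and 123 (73.7 and 52.0) in an intron.

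GC content was raised at the summits and rose with signal. Within 100 bp of the summit the median GC content was 43.3% over all 450 sites, 48.8% over the optimal sites and 40.8% over the others. It was 39.8% over pooled entries found in both replicates, 40.8% over X sites away from promoters and 39.3% over autosomal promoter sites. Windows of the same length, 170 bp upstream of the outer 5′ end of every X protein-coding gene, had a median of 35.3% (n = 2731), and those that touched no pooled entry 34.8% (n = 2327). Split into 4 groups by pooled signal, the sites had medians of 38.3%, 40.0%, 44.8% and 48.8% from the lowest to the highest group. The sites just shown give the range at the top: 58.7% at mai-1 and 45.3% at egl-17.

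GC content at the sites was highest around the summit and fell on both sides, less far downstream than upstream. In the 50 bp bin just upstream of the summit the mean was 51.2% at optimal sites (standard error 0.788), 41.2% at other sites (0.629) and 35.1% at the windows with no pooled entry (0.203). In the outermost bin, 1000 bp upstream, the means were 32.4%, 33.8% and 34.2%. In the outermost downstream bin they were 38.5%, 36.5% and 35.3%. Optimal autosomal promoter sites had a median GC content of 43.8% and optimal X sites away from promoters 46.8%. GC content can move the recovery of fragments in sequencing libraries, and its part in the signal was not tested, because the control was not used here.

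**Figure D5:**
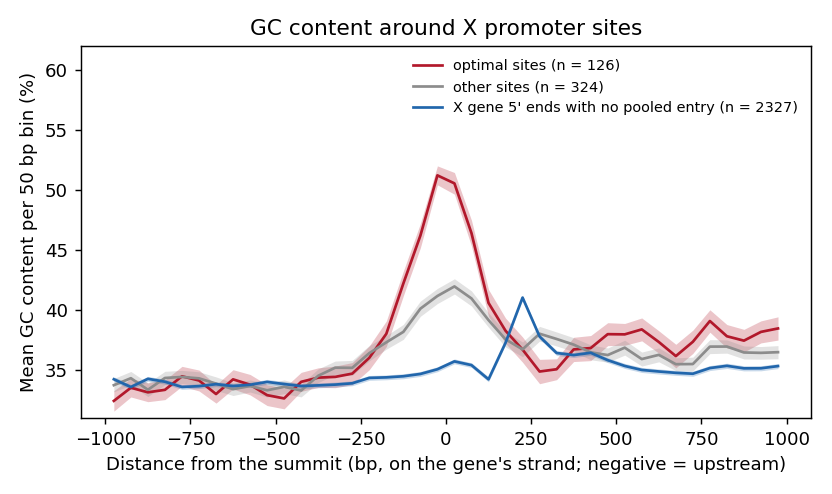
Mean GC content per 50 bp bin (vertical, percent) against distance from the summit (horizontal, bp, negative is upstream on the gene's strand). Shading is the standard error over sites. The lines are optimal sites, other sites and X gene windows that touched no pooled entry, whose centre is 170 bp upstream of the outer 5′ end. The optimal sites peak at 51.2% at the summit and the other sites near 42.0%. The windows that touched no entry show no peak there, only a rise near the 5′ end.

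A set of 9 short motifs was searched on both strands within 100 bp of each summit, and a match is a description of the letters, not of a bound factor. GAGAGAGA, the repeat bound by GAGA factors in insects, was found at 26 of 450 sites (5.78%, 3.81 to 8.35), 13 of 126 optimal sites (10.3%) and 13 of 324 others (4.01%). In the windows at all X genes it was found in 2.82%, but in all pooled entries in 5.63%, in those found in both replicates in 6.82% and in X sites away from promoters in 5.04% (9.26% of the optimal ones), so the members stood near the share of peaks in general. Optimal autosomal promoter sites held it at 11.7% (8.90 to 15), a range that takes in the value of the optimal X sites. GGGCGGG, the core of the Sp1-type GC box, was found at 10 optimal sites (7.94%) and 4 others (1.23%), against 1.90% of X gene windows. It was found at 5.41% of optimal autosomal promoter sites and 2.22% of optimal X sites away from promoters. Its share was 3.11% over all 450 sites and 2.01% over pooled entries found in both replicates.

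The AT-rich motifs went the other way. TGATAA, a site of the GATA factors that govern the worm gut, was found at 4.76% of optimal sites, 13.6% of the others and 21.3% of X gene windows. TATAAA was found at 10.3%, 16.0% and 24.0% of the same sets. TTTTCAG, which resembles a worm splice acceptor, was found at 3.17%, 9.26% and 12%. Optimal autosomal promoter sites held TGATAA at 7.79%, TATAAA at 12.1% and TTTTCAG at 14.7%. Optimal X sites away from promoters held them at 6.67%, 12.2% and 5.93%. Over all 450 sites the shares of TGATAA and TATAAA were 11.1% and 14.4%, against 11.6% and 16.6% of pooled entries found in both replicates. For TTTTCAG they were 7.56% and 14.9%. The GC content of the optimal sites, the others and the X gene windows runs the opposite way, and its part in the motif counts was not tested. CACGTG was found at 4% of all sites and TGACGTCA at 1.11%, against 4.12% and 1.35% of pooled entries found in both replicates.

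GCGCAGGG, the MEX core, was found at 4 sites, R04E5.9, egl-17, jkk-1 and Y15E3A.5 (0.889%, 0.243 to 2.26). The first of these is the strongest promoter site of all, and its match is in the sequence printed above. egl-17 had a pooled signal of 229, the jkk-1 site with the match, the lower of its pair, 83.6, and Y15E3A.5 76.4. In the 2731 X gene windows the letters occurred once (0.0366%). They were found at 2 of the 126 optimal X promoter sites (1.59%, 0.193 to 5.62). X sites away from promoters held them at 1.65% (21 of 1271), and the optimal ones among these at 6.30%. Autosomal promoter sites held them at 3 of 1924 (0.156%). With 4 matches, the share at promoter sites cannot be placed apart from that at X sites away from promoters.

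Small RNA genes lay within 250 bp of 19 of the 450 summits (4.22%), 18 of them tRNA genes and 1 a snoRNA gene. Optimal sites with a tRNA gene were those at ZK1193.2 (both sites), egl-17, nas-10, sor-3, unc-58 and C28G1.2, and the snoRNA gene was beside sdha-1. The share was 10.8% at X sites away from promoters and 4.47% at autosomal promoter sites. GTTCGANNC, the B box inside tRNA genes, was found at 2.67% of the sites, against 3.85% of pooled entries found in both replicates. At the sites beside a small RNA gene, the signal of the protein-coding promoter and that of the small RNA gene cannot be told apart.

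The 355 genes with a site were 13% of the 2731 protein-coding genes on X, and the 116 with an optimal site were 4.25%. These shares are the background for 17 lists of genes by function. They were close between the central stretch of the chromosome, 50% of its length, where 13.1% of 1446 genes had a site, and the rest of it, where 12.9% of 1285 did. Genes whose sites fell near a second gene are not counted, so a gene without a site here may have an entry of another class nearby.

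Of 8 listed X genes of sex determination and dosage compensation, 4 had a site and 2 an optimal one. sdc-2, which brings the dosage compensation complex to X, had a site of 138 (80.2 and 55.1 in the replicates) 434 bp upstream of its 5′ end. fox-1, an RNA-binding protein gene and one of the X signal elements that repress xol-1, had 103.7 (63.3 and 43.9) at an internal 5′ end and lay next to the edge of the optimal list. dpy-22, a Mediator subunit gene, had 79.9 and the X signal element ceh-39 had 54.9, and no site was listed at xol-1, sdc-1, sex-1 or tra-4. The exact interval for 4 of 8 was 15.7 to 84.3%, and the difference from the background of 13% was not tested.

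Against backgrounds of 13% and 4.25%, 11 of 29 listed neuronal genes had a site (37.9%, 20.7 to 57.7) and 5 an optimal one (17.2%, 5.85 to 35.8). They were unc-115, syd-2 and egl-17, given above, of which egl-17 is described for its part in muscle precursor migration rather than in neurons, unc-1 (148; 95.7 and 55.8), a stomatin-like gene that acts in locomotion, and unc-58 (141; 97.3 and 46.2), a potassium channel family gene whose site has a tRNA gene at its summit. The neuronal list was chosen with earlier results of these data known, and its difference from the backgrounds was not tested. Of 24 genes of nicotinic and other ligand-gated channels 5 had a site, with 1 optimal: acr-12, a nicotinic receptor subunit gene, at 193 (109 and 81.7). acr-2 (76.9), lgc-47 (76.3) and acr-10 (73.4) stood below the optimal list. None of the 12 genes in the potassium channel list had a site (upper limit of the exact interval 26.5%), but unc-58 and slo-2 (79.3; 57.8 and 22.7), which also encode potassium channels, were counted in the neuronal list.

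Of 6 listed translation and chaperone genes on X 3 had a site, and all 3 were optimal: eef-1A.2, rpl-11.2 and hsp-3. hsp-3, a gene for an endoplasmic reticulum chaperone of the Hsp70 family, had 218 (127 and 95.7) with its summit 20 bp upstream of the 5′ end and a GC content of 62.7%. In energy metabolism 2 of 6 genes had a site: ucr-2.2, a subunit gene of respiratory complex III, with 198 (126 and 68.8), and gpd-3, a glyceraldehyde-3-phosphate dehydrogenase gene, with 68.6. Of 12 genes for small GTPases and their regulators 4 had a site, namely rab-14 (152; 99.8 and 63), tbc-18 (144; 87.0 and 59.1), tbc-7 (140; 84.4 and 51.5) and, below the optimal list, rab-6.2 (66.7). These 3 lists rest on 6, 6 and 12 genes, and their intervals, from 11.8 to 88.2%, 4.33 to 77.7% and 9.92 to 65.1%, are wide. Their differences from the backgrounds of 13% and 4.25% were not tested.

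Of 23 nuclear hormone receptor genes 5 had a site and 3 an optimal one. These were nhr-1, nhr-40 (211; 114 and 113) and nhr-14 (124; 71.4 and 51.0), while nhr-71 stood at 73.1. Their share of 21.7% had an interval of 7.46 to 43.7%, which holds the background of 13%. lin-14 was the one gene with a site among 11 heterochronic and vulval genes.

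Several lists had few sites or none. No site was found at any of 10 listed gut genes, among them genes for yolk proteins and the GATA factor gene elt-2, at any of 10 muscle and basement membrane genes, or at any of 7 ubiquitin and proteasome genes. The upper limits of the exact intervals, 30.8% for 10 genes and 41.0% for 7, all hold the background of 13%. Among 33 genes of the collagen and cuticle list the only sites were at dpy-23 (172; 100.3 and 74.0), which encodes a subunit of the clathrin adaptor AP-2, and dpy-22, and neither encodes a collagen. Neuropeptide genes had 2 sites among 34, at nlp-45 (67.0) and nlp-57 (47.1), neither optimal. Single sites below the optimal list were found among 18 homeobox genes (ceh-39), 11 cytochrome P450 and UGT genes (ugt-23, 51.1) and 7 MAP kinase kinase genes named mek, mkk or sek (sek-3, 63.5). That last list was drawn by gene name and leaves out jkk-1, a gene of the same kind with an optimal site of 132.5 (80.3 and 58.2 in the replicates).

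Most genes had 1 site (271), 74 had 2 and 10 had 3 or more. Many second sites were entries that overlap the first: 68 neighbouring pairs overlapped, all at the same gene, with summits 199 to 314 bp apart (median 208). The higher of the pair exceeded the lower by a median factor of 1.82. Entries have a fixed width of 470 bp unless shortened, and whether a pair marks 1 bound region or more was not tested. Of the 10 genes with 2 optimal sites, 8 had such a pair, namely R04E5.9 (449 and 106), myrf-2 (300.2 and 129), ZK1193.2 (277 and 151), sto-4 (215 and 112), pab-2 (215 and 106), nhr-40 (211 and 116), cab-1 (197 and 116) and acr-12 (193 and 114). The other two were lin-14 and nhr-1, whose optimal sites lay at separate 5′ ends. A total of 382 sites remained when the highest of each overlapping group was kept.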

How the data were processed

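HIM-1-eGFP ChIP-seq peaks came from narrowPeak lists in ce11, per the text deposited with the samples: 1 list per replicate, 1 from both replicates pooled, and the optimal list thresholded by the irreproducible discovery rate (IDR). The first 3 hold peaks and background entries. The signal value, a score for each peak, and the −log10 q-value are the authors' deposited values; the summit offset was read from the same deposited lists. No source used here names the aligner, the peak caller or their versions. The ce10 lists were not used.

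Overlap meant at least 1 bp; where several replicate entries overlapped a site, the one with the nearest summit gave its value. 5′ ends came from Ensembl release 115 (WBcel235), and sequence and products from RefSeq. GC content and motifs were counted over 201 bases. Shares have exact Clopper-Pearson 95% intervals. No test was run, because 1 group of 2 replicates gives no comparison. Named genes are the 20 highest optimal sites, those at the list's edge, the extreme replicate ratios, the highest of each gene list and genes with more than 1 optimal site. Printed sequences span 101 bases, or 201 where a GAGAGAGA match reached farther out. Members, lists and motifs were chosen with earlier results of these data known. Python 3.11.15, NumPy 2.4.6, pandas 2.3.3, SciPy 1.17.1 and matplotlib 3.10.9 were used, with the overlap and position code tested on simulated data. The alternatives tried are in the closing section.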

Additional observations from a re-analysis of the deposited data

How the results depend on the processing

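The number of sites was 272 with a 250 bp promoter window, 126 with only optimal sites and 62 with only the upper part of the optimal list. It was 665 with a 1000 bp window, 526 without replicate 2 and 463 without replicate 1. The share of sites in the optimal list ran from 23.8% to 27.9% when a replicate was left out. The median position was −69.5 bp with the 250 bp window, −230.0 bp with a 1000 bp window, −195.5 bp with only optimal sites, −246 bp with their upper part, and −161 to −154 bp without a replicate; a window bounds the positions it can hold, so the first 2 values follow from its size. The median GC content was 43.0% with the 250 bp window or 1 5′ end per gene, 42.8% with the 1000 bp window or without sites near small RNA genes, 43.8% with more of the entry covered in each replicate, 44.3% with overlapping sites merged, 48.8% with only optimal sites, 50.7% with their upper part, 39.5% over 250 bp either side, and 42.3% to 42.8% without a replicate. Both replicates' summits gave the same GC median, so any shift counted as a move. No value changed sign. No paired analysis was possible because there is 1 group and no test. The lists give no depth.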

Other observations

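A total of 10 genes carried 3 or more sites, and these were picked out after their values were seen. At ags-3, a gene for an activator of G protein signalling, the sites of 85.6, 81.3 and 63.3 did not overlap and lay at separate annotated 5′ ends. The same held at rgs-2, a regulator of G protein signalling, with 74.7, 70.4 and 62.5. Nor did the sites at nhr-1 and ZK470.2 overlap, and each of these genes had an optimal site. At some other genes a pair of the sites overlapped and covers 1 stretch. At unc-7, which encodes an innexin of neuronal gap junctions, the sites of 76.3 and 57.5 overlapped, with summits 216 bp apart, and a site of 77.7 stood alone. At pkc-2, a protein kinase C gene, those of 79.1 and 73.0 overlapped (210 bp apart), and one of 76.2 stood alone. None of the sites at ags-3, rgs-2, unc-7 and pkc-2 was in the optimal list. nkb-3, a gene for a beta subunit of the sodium pump, had an optimal site of 157.7 overlapping one of 53.6 (223 bp apart), and a separate one of 76.0. H18N23.2 had 4 entries from 75.7 to 89.5, of which a pair 205 bp apart overlapped and shared the same 5′ end and the same replicate 2 entry.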
